A study of Homo sapiens with 13 samples.

Results

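The brush border and CEACAM genes described here are 10 genes of the absorptive epithelium of the gut, VIL1, CDH17, LGALS4, CEACAM1, CEACAM5, CEACAM6, FABP1, SLC26A3, CA2 and EPCAM. They were taken by their symbols from 2 deposited comparison tables, which share 23871 symbols. All 10 were listed in both tables. The siSOX9 table has reads for 10 of them and the siY14 table for 8, since FABP1 and SLC26A3 were listed at 0 there. The tables come from RNA sequencing of DLD-1, an established cell line from a human colorectal adenocarcinoma. The siSOX9 group held 4 samples transfected with small interfering RNA (siRNA) against SOX9, set against 3 samples with a control siRNA (siCtrl), all from experiments 1 and 2. The siY14 group held 4 samples, 2 with each of the Y14 siRNAs numbered 9 and 10, set against 2 siCtrl samples of experiment 3. All 13 samples received 50 nM of siRNA and were collected 72 h later.

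Absorptive cells of the gut carry a brush border, a dense field of microvilli that each hold a core of bundled actin. Villin, the product of VIL1, binds and bundles that actin, and other members sit in the membrane above it or in the cytoplasm below it as transporters, adhesion proteins, lipid carriers and enzymes. CEACAM proteins are adhesion molecules of the immunoglobulin superfamily, encoded by a gene cluster on the long arm of chromosome 19, and CEACAM5 is the carcinoembryonic antigen used as a serum marker of colorectal cancer. SOX9 is a transcription factor of the crypt base. RBM8A encodes Y14, a subunit of the exon junction complex that splicing leaves on mRNA. The series title poses the question of what SOX9 does in transcription and in alternative splicing, and the gene values used here bear on RNA levels.

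The deposited tables give 1 mean normalised read count per arm, that is, reads divided by a size factor for each library. Whole reads of single libraries were recovered from these means for most genes, and the libraries of an arm are lettered by depth, the deepest being a. They carry no sample name. Estimated depth lay between 24.8 and 184 M reads for the siSOX9 comparison and between 47.2 and 71.6 M for the siY14 comparison. The deepest library of either arm of the siSOX9 table stood apart from the others of its arm, and the deviations of these 2 libraries from their arms correlated at 0.88 across 4714 genes, which are not independent replicates. The labels place 1 siSOX9 and 1 siCtrl sample in experiment 2, and whether these are the deepest libraries was not tested. In the siY14 table, siY14 libraries a and c formed a pair and b and d another, with a mean chi-square per gene of 1.13 and 1.20 within pairs, where 1 is counting noise, against at least 29.5 between pairs. The siCtrl libraries of that table had 1.13. Whether the siY14 pairs correspond to the Y14 siRNAs was not tested, since the libraries carry no sample name. SOX9 itself averaged 9067 in siSOX9 cells and 24468 in siCtrl cells in the authors' deposited table, a log2 ratio of -1.43 (adjusted p = 1.40e-04). Both tables list RBM8A at 0 in each arm, so the siY14 label has no check from its own target. Markers of immune, fibroblast and endothelial cells had low summed levels, though a gene listed at 0 is not shown to be absent, since RBM8A is too. Their part in the results was not tested. The 7 immune markers summed to 156 in siSOX9 and 172 in siCtrl cells and to 134 in siY14 and 129 in siCtrl cells, with HLA-DRA at 0 in every arm. The 6 fibroblast markers summed to 151 in siSOX9 and 137 in siCtrl cells, with COL1A1 and COL3A1 higher, PDGFRB lower and COL1A2 and LUM at 0 in the authors' deposited table. They summed to 63.1 in siY14 and 116 in siCtrl cells, with DCN and LUM at 0, and none passed. The 4 endothelial markers summed to 31.2 in siSOX9 and 38.6 in siCtrl cells and to 24.3 in siY14 and 31.7 in siCtrl cells, and none passed. The 6 epithelial markers summed to at least 299387 in every arm, and CDH1 among them fell after siY14, by 1.21 on the log2 scale (adjusted p = 0.0282, authors' deposited table). The 7 goblet cell markers summed to 18790 in siSOX9 and 28176 in siCtrl cells, and to 22832 in siY14 and 33097 in siCtrl cells. AGR2 made up most of each sum, and most of the others were low. MUC2 averaged 3.56 in siSOX9 and 4.36 in siCtrl cells, and 1.99 in siY14 and 0 in siCtrl cells. TFF3 stood higher, at 586 in siSOX9 and 774 in siCtrl cells, and at 271 in siY14 and 289 in siCtrl cells. Of the 7 goblet cell markers AGR2 alone passed, lower in both of the authors' deposited tables. Its log2 ratio there was -0.59 after siSOX9 (adjusted p = 0.0494) and -0.54 after siY14 (adjusted p = 0.0202).

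Promoter sequences of 6 of the 10 genes were matched in RefSeq (GRCh38.p14), each running from 250 bases before to 50 bases after the start site. Those of the CEACAM members and of LGALS4 are shown because these genes had lower means under both siRNAs. CEACAM5 lies on the plus strand at chr19:41708376-41708675 and CEACAM6 on the plus strand at chr19:41755280-41755579. CEACAM1 lies on the minus strand at chr19:42528432-42528731 and LGALS4 on the minus strand at chr19:38812896-38813195. Capitals mark ACAAT, the core letters of the motif bound by SOX proteins, and TTTAT, the core letters of the motif bound by CDX factors, searched on both strands (ATTGT and ATAAA on the other strand).
CEACAM5: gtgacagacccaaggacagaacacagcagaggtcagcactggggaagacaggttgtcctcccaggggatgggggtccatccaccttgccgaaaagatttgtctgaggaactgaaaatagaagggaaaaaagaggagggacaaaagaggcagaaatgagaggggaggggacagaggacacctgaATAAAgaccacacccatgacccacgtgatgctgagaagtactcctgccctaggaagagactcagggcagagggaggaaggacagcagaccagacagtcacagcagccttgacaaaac
CEACAM6: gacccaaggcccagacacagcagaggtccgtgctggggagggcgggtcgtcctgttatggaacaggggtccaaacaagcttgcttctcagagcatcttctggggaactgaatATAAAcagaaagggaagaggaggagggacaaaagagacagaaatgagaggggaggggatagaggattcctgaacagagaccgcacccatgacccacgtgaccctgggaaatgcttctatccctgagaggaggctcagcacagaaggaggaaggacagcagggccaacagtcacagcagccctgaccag
CEACAM1: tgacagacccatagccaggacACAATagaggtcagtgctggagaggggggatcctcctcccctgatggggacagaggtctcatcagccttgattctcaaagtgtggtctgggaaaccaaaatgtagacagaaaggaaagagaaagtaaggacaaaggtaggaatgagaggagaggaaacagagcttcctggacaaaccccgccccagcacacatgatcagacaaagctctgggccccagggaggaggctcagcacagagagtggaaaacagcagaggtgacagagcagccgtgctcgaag
LGALS4: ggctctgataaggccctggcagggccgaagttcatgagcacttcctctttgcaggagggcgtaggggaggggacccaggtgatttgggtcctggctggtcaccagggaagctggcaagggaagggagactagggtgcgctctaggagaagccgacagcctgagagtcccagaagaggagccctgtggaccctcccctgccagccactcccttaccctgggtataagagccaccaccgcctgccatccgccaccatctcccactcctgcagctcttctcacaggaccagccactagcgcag

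The CEACAM5 window held 1 TTTAT match, on its minus strand with its leftmost base at -67, and CEACAM6 held 1 at -138. CEACAM1 held 1 ACAAT match at -229, and LGALS4 held neither motif. Of the matched promoters not shown, FABP1 held 3 TTTAT matches and SLC26A3 held 1 ACAAT match. Of all 35116 promoter windows of the same length, 27.4% held ACAAT and 34.9% held TTTAT, so single matches are common. In global pairwise alignments, CEACAM5 and CEACAM6 had the same base at 78.8% of aligned positions, CEACAM1 and CEACAM6 at 74.8%, and CEACAM1 and CEACAM5 at 70.7%. The other pairs among the 6 matched promoters lay between 54.7% and 63.2%.

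Per kilobase of exon, EPCAM and CDH17 were the most abundant members in every arm. In the siSOX9 table, EPCAM stood at 12874 normalised counts per kilobase in siSOX9 cells and 15370 in siCtrl cells, and CDH17 at 3527 in siSOX9 cells and 2599 in siCtrl cells. CA2 and VIL1 changed places between arms, with 493 for CA2 and 281 for VIL1 in siSOX9 cells, against 307 for CA2 and 643 for VIL1 in siCtrl cells. LGALS4 followed at 79.9 in siSOX9 cells and 154 in siCtrl cells. CEACAM6, CEACAM1, CEACAM5 and SLC26A3 lay between 4.66 and 13.8 in siSOX9 cells and between 18.3 and 21.6 in siCtrl cells. The ranges of these 4 genes over the libraries of an arm overlapped in every neighbouring pair, in siSOX9 cells and in siCtrl cells, so neighbours in that order did not differ beyond their spread. In the siY14 table the order in siY14 cells was EPCAM, CDH17, CA2, VIL1, LGALS4, CEACAM6, CEACAM1 and CEACAM5, between 22640 and 4.89 per kilobase, and in siCtrl cells VIL1 stood above CA2, at 616 and 383. Over the siY14 libraries, the ranges of CA2 and VIL1 overlapped, as did those of LGALS4 and CEACAM6, while that of CEACAM1 lay below that of CEACAM6. Such ranges also hold differences between libraries that the genes share. An overlap therefore does not show that the order was unsure within a library. These lengths come from GENCODE 29 on GRCh38, whereas the authors counted on hg19.

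After siSOX9, the villin gene and CEACAM5 fell and CA2, which encodes a cytoplasmic carbonic anhydrase, rose in the authors' deposited table. These 3 of the 10 genes passed the authors' adjusted p of 0.05 (Benjamini-Hochberg over all genes with reads), beside 3.47% of all genes with reads. Of these genes, 2.27% were lower and 1.19% higher, against 2 and 1 of the members. In the limma-voom fit of recovered reads (Benjamini-Hochberg over 6870 genes), 5 of the 7 members that could be tested passed, VIL1, CEACAM5, LGALS4 and CEACAM6 lower and CA2 higher, beside 18.3% of all genes tested (10.3% lower, 8.05% higher). Over the 9 members with a mean of at least 10, the median log2 fold change in the authors' deposited table was -0.72, and it was 0.01 over 13649 genes. Nothing in the labels says that samples of a group came from separate cultures, so the p-values cover no more than the spread among these samples, part of which may be technical. In bulk RNA, fewer cells with a transcript and less of it per cell cannot be told apart.

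VIL1 had normalised counts of 2113, 1974, 1976 and 1656 in siSOX9 libraries a to d, against 4545, 4698 and 4004 in siCtrl libraries a to c. All 4 siSOX9 libraries lay under every siCtrl library, and the mean in siSOX9 cells lies above those at which all genes were tried, so these values are less certain than those of members with lower means. The means were 1930 ± 194 in siSOX9 cells (SD, n = 4) and 4416 ± 365 in siCtrl cells (SD, n = 3). On the log2 scale the fold change was -1.19 ± 0.10 (SE, adjusted p = 9.25e-05) in limma-voom, and -1.19 (adjusted p = 5.84e-08) in the authors' deposited table.

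CDH17 encodes liver-intestine cadherin, an adhesion protein of the lateral membrane. Its mean in the authors' deposited table was 13398 in siSOX9 cells and 9873 in siCtrl cells, a log2 ratio of 0.44 (adjusted p = 0.133). The siCtrl libraries had 10256, 9952 and 9412, recovered above the means tried for all genes, and the siSOX9 libraries could not be recovered at so high a mean. EPCAM, the epithelial cell adhesion molecule, is likewise known only by its mean in siSOX9 cells. It was 25877 in siSOX9 cells and 30894 in siCtrl cells, a log2 ratio of -0.26 (adjusted p = 0.876) in the authors' deposited table. Neither gene passed the threshold, which does not show that their levels were alike.

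CEACAM5, which encodes carcinoembryonic antigen, had 10.9, 16.1, 16.8 and 10.4 normalised counts in siSOX9 libraries a to d, against 49.3, 61.3 and 54.0 in siCtrl libraries a to c. These came from 39, 13, 10 and 5 reads in siSOX9 libraries, against 170, 45 and 26 in siCtrl libraries. The highest siSOX9 library held less than the lowest siCtrl library. The means were 13.5 ± 3.4 in siSOX9 cells (SD, n = 4) and 54.9 ± 6.0 in siCtrl cells (SD, n = 3), with a log2 ratio of -2.04 ± 0.24 (SE, adjusted p = 3.83e-04) in limma-voom. The authors' deposited table gave -2.02 (adjusted p = 9.60e-05), the largest fall by log2 fold change among the members with reads in both arms.

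CEACAM6, a related cell surface protein that is held by a lipid anchor, had 35.2, 38.3, 38.8 and 37.3 in siSOX9 libraries a to d, against 56.3, 53.1 and 62.3 in siCtrl libraries a to c. The arms did not overlap, and the siSOX9 libraries varied little. Its log2 fold change was -0.62 ± 0.16 (SE, adjusted p = 0.0254) in limma-voom, while the authors' deposited table gave -0.61 (adjusted p = 0.580). The limma-voom call was lost in 5 of the 7 fits that left out 1 library, with adjusted p-values up to 0.109, and was kept without siSOX9 library c and without siCtrl library b.

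CEACAM1, a member with a cytoplasmic signalling tail, had 39.4, 61.8, 37.1 and 55.9 in siSOX9 libraries, against 48.4, 98.1 and 93.4 in siCtrl libraries. The arms overlapped at siCtrl library a, the deepest. On the log2 scale the fold change was -0.50 ± 0.30 (SE, adjusted p = 0.285) in limma-voom, and it was -1.11 (adjusted p = 0.0155) without siCtrl library a. Without siSOX9 library a it was -0.27 (adjusted p = 0.603) and without siCtrl library b -0.31 (adjusted p = 0.511) in limma-voom. The authors' deposited table gave -0.72 (adjusted p = 1). The CEACAM genes are paralogs, and 4.15% of the 50-base stretches of the CEACAM1 transcript, 3.40% of CEACAM5 and 4.60% of CEACAM6 also occur in other genes, so how reads were split between them is uncertain. EPCAM shares 2.57% of its stretches with the annotated gene AC093840.1. CEACAM5 and CEACAM6 overlap the annotated gene AC243967.1 on the same strand, and their shares above leave that gene out. VIL1 overlaps USP37 and CEACAM1 overlaps LIPE-AS1 on the opposite strand, and strand use in counting is not given in the sources used here.

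LGALS4 encodes galectin-4, a sugar-binding protein that takes part in apical transport in enterocytes. It had 107, 147, 125 and 112 in siSOX9 libraries a to d, against 173, 317 and 218 in siCtrl libraries a to c. Every siSOX9 library lay under every siCtrl library, but siCtrl library b stood well above the other 2. Its log2 fold change was -0.84 ± 0.22 (SE, adjusted p = 0.0237) in limma-voom, against -0.94 (adjusted p = 0.490) in the authors' deposited table. The limma-voom call was lost in 4 of the 7 fits that left out 1 library, with adjusted p-values up to 0.0613, and was kept without siSOX9 library b, siCtrl library a or siCtrl library b.

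SLC26A3, the chloride and bicarbonate exchanger of the apical colonocyte membrane, had 3.91, 7.41, 28.6 and 22.8 in siSOX9 libraries a to d, against 11.3, 89.9 and 56.0 in siCtrl libraries a to c. The lowest siCtrl library fell among the siSOX9 values, and the deepest library was the lowest of its arm in both arms. On the log2 scale the fold change was -1.52 ± 0.87 (SE, adjusted p = 0.270) in limma-voom, and the authors' deposited table gave -1.74 (adjusted p = 0.936). It was -3.28 (adjusted p = 0.00431) without siCtrl library a, -0.40 (adjusted p = 0.778) without siSOX9 library a and -0.99 (adjusted p = 0.422) without siCtrl library b in limma-voom. FABP1, the liver-type fatty acid binding protein of enterocytes, had 0 reads in every siSOX9 library and 1 read in all siCtrl libraries together, so no comparison was detectable.

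CA2 ran the other way, with 963, 849, 832 and 744 in siSOX9 libraries a to d, against 590, 458 and 536 in siCtrl libraries a to c. All siSOX9 libraries lay above all siCtrl libraries. The means were 847 ± 90 in siSOX9 cells (SD, n = 4) and 528 ± 66 in siCtrl cells (SD, n = 3). Its log2 fold change was 0.68 ± 0.12 (SE, adjusted p = 0.00403) in limma-voom, and 0.68 (adjusted p = 0.0125) in the authors' deposited table.

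**Figure D1:**
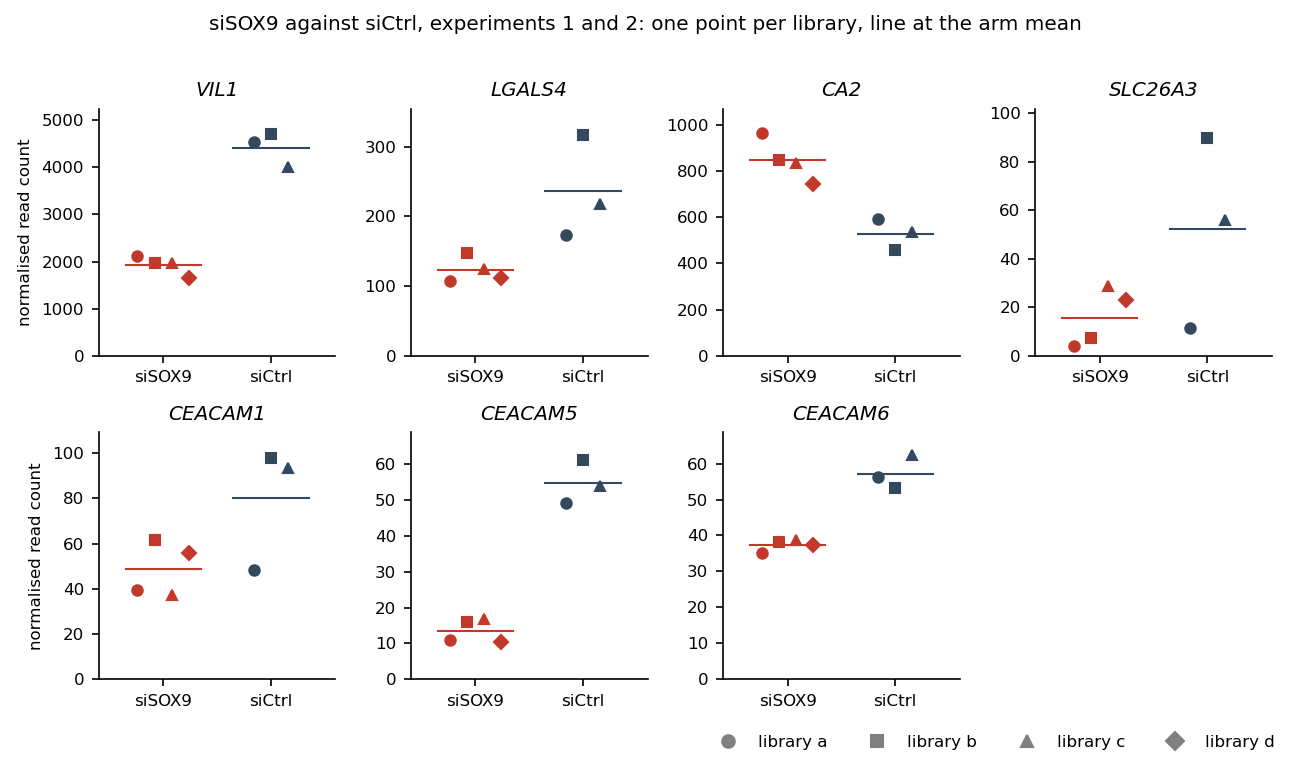
Normalised read counts (y axis, linear from 0) of the 7 members with recovered libraries and reads in most of them, for siSOX9 libraries (left) and siCtrl libraries (right) of experiments 1 and 2. Each symbol is 1 library and each line the mean of the arm; VIL1, LGALS4, CEACAM5, CEACAM6 and CA2 show no overlap between arms, while CEACAM1 and SLC26A3 overlap at siCtrl library a.

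The arms of the siSOX9 table did not overlap for 5 of the 7 members tested, beside 29.2% of all genes tested, and 4 of them were lower, beside 15.6%. Because the deepest libraries stood apart, the comparison was also made within them. Between the 2 deepest libraries, the log2 ratio of siSOX9 to siCtrl was -1.10 for VIL1, -2.18 for CEACAM5, -0.69 for LGALS4, -0.68 for CEACAM6 and 0.71 for CA2. Among the other 3 siSOX9 and 2 siCtrl libraries it was -1.22 for VIL1, -1.07 for LGALS4, -0.60 for CEACAM6 and 0.70 for CA2, and CEACAM5 averaged 14.4 in these siSOX9 libraries and 57.6 in these siCtrl libraries. The direction was the same in both sets for each of these 5 genes. It had to be, since their arms did not overlap, so the direction is no further test. SLC26A3 gave -1.53 in the deepest pair and -1.90 in the others, and CEACAM1 gave -0.30 and -0.89. With this depth class as a term of the limma-voom fit, all 7 members passed, beside 47.1% of all genes tested, among them CEACAM1 (adjusted p = 0.0101) and SLC26A3 (adjusted p = 1.48e-05). Without the deepest library of each arm, 6 of 7 passed in limma-voom, beside 27.4% of all genes tested, and CEACAM6 did not (adjusted p = 0.162). SLC26A3 was also the member that the deepest libraries set most apart, at -2.33 on the log2 scale against the other siSOX9 libraries and -2.69 against the other siCtrl libraries.

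After siY14, VIL1, CDH17 and LGALS4 fell past the threshold in the authors' deposited table, and no member rose past it. These 3 of the 8 members with reads passed the authors' adjusted p of 0.05, beside 9.16% of all genes with reads (5.35% lower). In the limma-voom fit of recovered reads (Benjamini-Hochberg over 8111 genes), 1 of the 6 members that could be tested passed, LGALS4, beside 19.8% of all genes tested (10.6% lower). The median log2 fold change in the authors' deposited table was -0.58 over the 8 members and -0.00 over 13444 genes with a mean of at least 10. The siY14 libraries formed pairs and the siCtrl libraries nearly matched each other, and the labels do not say which of them came from separate cultures.

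LGALS4 had 25.6, 39.1, 35.7 and 32.4 normalised counts in siY14 libraries a to d, against 99.5 and 124 in siCtrl libraries a and b. The arms lay far apart, and both siY14 pairs were low, at 0.275 of the siCtrl mean for libraries a and c and 0.321 for b and d. On the log2 scale the fold change was -1.73 ± 0.20 (SE, adjusted p = 0.0104) in limma-voom, and -1.75 (adjusted p = 1.95e-06) in the authors' deposited table. Without siCtrl library a it was -1.90 (adjusted p = 0.174), without siCtrl library b -1.59 (adjusted p = 0.142) and with the near-identical libraries summed -1.73 (adjusted p = 0.344) in limma-voom, fits in which 1, 1 and 3 of all 8111 genes passed.

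VIL1 had 3270, 2346, 3346 and 2425 in siY14 libraries a to d, against 4213 and 4256 in siCtrl libraries a and b. All siY14 libraries were below both siCtrl libraries, and the pairs differed, at 0.781 of the siCtrl mean for a and c and 0.563 for b and d. Its log2 fold change was -0.57 (adjusted p = 0.0187) in the authors' deposited table, and -0.59 ± 0.17 (SE, adjusted p = 0.0523) in limma-voom. Fitted only among genes with a mean of at least 100, its limma-voom adjusted p was 0.0490. The limma-voom adjusted p was 0.0373 without siY14 library a and 0.0441 without c, which form 1 pair. It was 0.0844 without b, 0.101 without d, 0.270 without siCtrl library a, 0.244 without siCtrl library b and 0.519 with the near-identical libraries summed. The mean of VIL1 in siY14 cells lies above those at which all genes were tried, so its siY14 values are less certain than those of members with lower means. CDH17 had a mean of 5963 in siY14 cells and 9503 in siCtrl cells in the authors' deposited table, with a log2 ratio of -0.67 (adjusted p = 0.00251). Its siCtrl libraries had 9539 and 9466, also above the means tried for all genes, and its siY14 libraries were not recovered.

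The CEACAM genes were lower in all siY14 libraries without passing the threshold. CEACAM5 had 20.8, 9.78, 10.0 and 16.2 in siY14 libraries a to d, against 30.5 and 30.6 in siCtrl libraries, with a limma-voom log2 fold change of -1.14 ± 0.33 (SE, adjusted p = 0.0545). Without siY14 library a its limma-voom adjusted p was 0.0315, in the other fits that left out 1 library it lay between 0.0858 and 0.276, and with the near-identical libraries summed it was 0.598. CEACAM6 had 48.0, 36.7, 56.9 and 38.2 in siY14 libraries, against 67.2 and 65.0 in siCtrl libraries, with -0.58 ± 0.21 and a limma-voom adjusted p of 0.0915. CEACAM1 had 29.6, 38.3, 48.0 and 40.6 in siY14 libraries, against 61.8 and 56.1 in siCtrl libraries, with -0.63 ± 0.22 and a limma-voom adjusted p of 0.0810. No siY14 library reached a siCtrl library for any of the 3 genes, and 29.6% of all genes tested were likewise lower without overlap. In the authors' deposited table their adjusted p-values were 0.123 for CEACAM5, 0.272 for CEACAM6 and 0.233 for CEACAM1.

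CA2 was higher in all siY14 libraries, with 1029, 798, 1070 and 780 in libraries a to d, against 660 and 656 in siCtrl libraries a and b. Libraries a and c averaged 1.59 times the siCtrl mean, and b and d 1.20 times. The limma-voom log2 fold change was 0.47 ± 0.16 (SE, adjusted p = 0.0873), and the authors' deposited table gave 0.48 (adjusted p = 0.125). EPCAM averaged 45507 in siY14 cells and 51818 in siCtrl cells in the authors' deposited table, a log2 ratio of -0.19 (adjusted p = 0.589). FABP1 and SLC26A3 were listed at 0 in both arms, as was RBM8A, a gene that every cell uses.

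**Figure D2:**
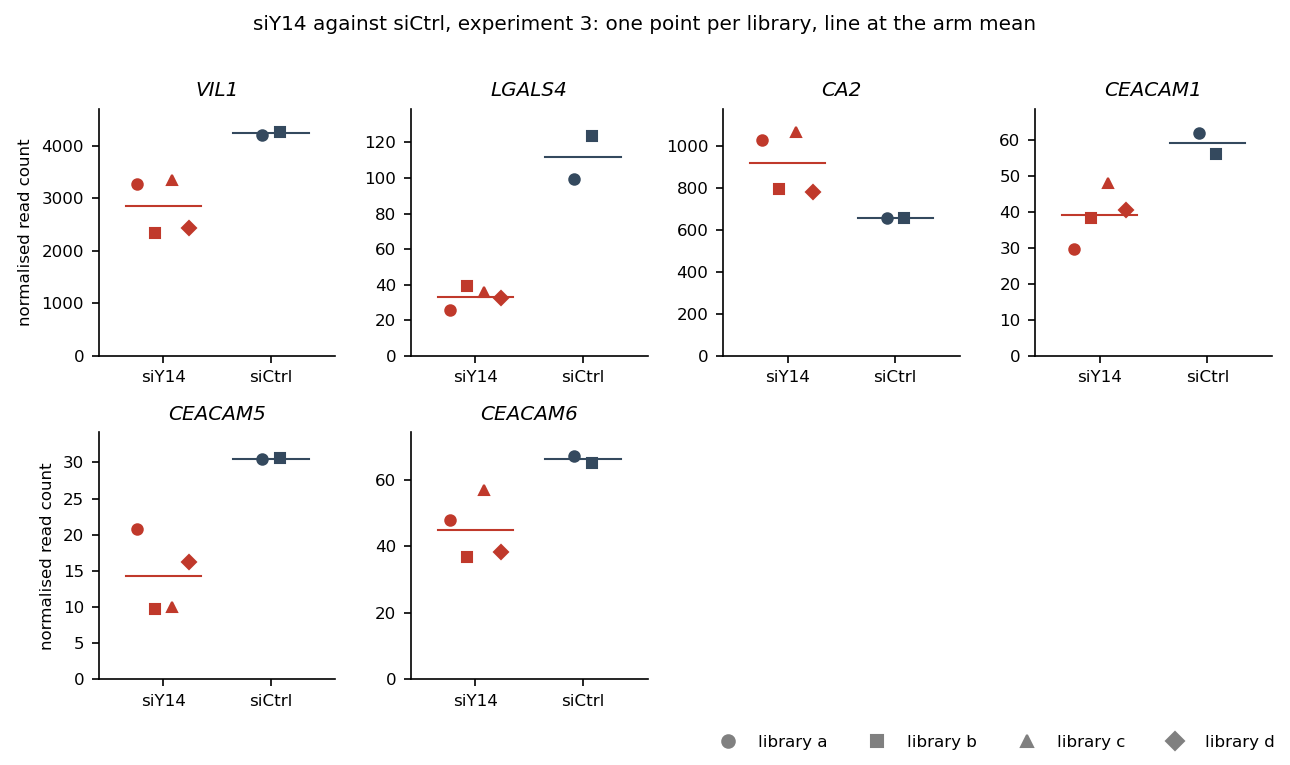
Normalised read counts (y axis, linear from 0) of the 6 members with recovered libraries, for siY14 libraries (left) and siCtrl libraries (right) of experiment 3. Each symbol is 1 library and each line the mean of the arm; no siY14 library overlaps a siCtrl library in any panel, and libraries a and c lie above b and d for VIL1, CA2 and CEACAM6.

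All 6 recovered members had arms that did not overlap in the siY14 table, 5 of them lower, beside 58.8% of all genes tested and 29.6% lower. The siCtrl arm of that table holds only 2 nearly equal libraries. Of the 8 members with a mean of at least 10 in both tables, 6 had a lower mean in both knockdowns, VIL1, LGALS4, EPCAM and the CEACAM genes, beside 25.7% of the 13186 genes with such a mean. CA2 was higher in both, and CDH17 higher in siSOX9 and lower in siY14 cells. The comparisons share no siCtrl libraries, and experiments and depths differ between them.

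The difference between the knockdowns was tested in a joint limma-voom model of 6310 genes for the 6 members recovered in both tables. VIL1 fell further after siSOX9 than after siY14, by a joint limma-voom difference, siSOX9 minus siY14, of -0.59 ± 0.19 (SE, adjusted p = 0.0492). It was the 1 member called of 6, a share near the 17.5% of all genes called. That call was lost in 10 of the 13 fits that left out 1 library, with adjusted p-values up to 0.172, and was kept without siSOX9 library a, siY14 library b or siY14 library d. LGALS4 had 0.89 ± 0.36 (adjusted p = 0.106), and CEACAM5 had -0.89 ± 0.40 (adjusted p = 0.145) in limma-voom. Without siCtrl library b of the siSOX9 table, LGALS4 had 1.10 with a limma-voom adjusted p of 0.0251, and without siCtrl library a of that table it had 0.55 with one of 0.247. CA2 had 0.22 ± 0.21, CEACAM1 0.12 ± 0.43 and CEACAM6 -0.03 ± 0.26, with limma-voom adjusted p-values of 0.509, 0.879 and 0.946. CDH17 and EPCAM could not be fitted in this model, so the opposite directions of CDH17 were not tested against each other.

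**Figure D3:**
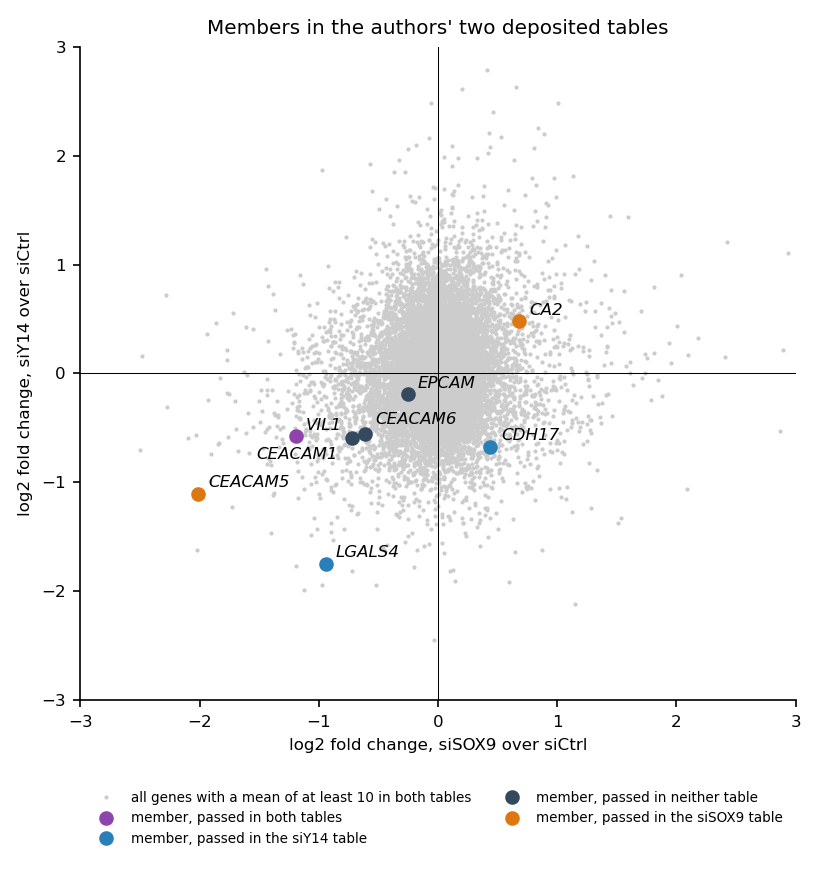
Log2 fold change of siSOX9 over siCtrl (x axis) against that of siY14 over siCtrl (y axis) in the authors' deposited tables, with genes of a mean of at least 10 in both tables in grey and the 8 such members in colour by the table in which they passed an adjusted p of 0.05. VIL1 passed in both, and CDH17 alone lies to the right and below; genes beyond the drawn range of -3 to 3 are left out.

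Other genes of the brush border and of colonocytes were read from lists of related genes in the authors' deposited tables. Over all genes with reads, 3.47% passed after siSOX9 (2.27% lower) and 9.16% after siY14 (5.35% lower). Of 14 brush border structure genes with reads, 1 passed in either table. COBL, an actin nucleator, fell after siSOX9 with a log2 ratio of -0.86 (adjusted p = 1.31e-04), and PLS1, the fimbrin of microvilli, fell after siY14 with -0.92 (adjusted p = 0.00419) in the authors' deposited tables. EZR, which encodes ezrin, the link between membrane and actin, had -0.05 (adjusted p = 1) after siSOX9 and -0.48 (adjusted p = 0.0899) after siY14 in the same deposited tables of the authors. The median was -0.06 over the 10 with a mean of at least 10 after siSOX9 and -0.05 over 9 such genes after siY14.

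Of 13 brush border hydrolases, none passed after siSOX9 and 1 passed after siY14, where DPP4, a dipeptidyl peptidase of the microvillar membrane, fell with a log2 ratio of -0.73 (adjusted p = 0.0419) in the authors' deposited table. The median was 0.26 over the 5 with a mean of at least 10 after siSOX9 and 0.18 over 6 such genes after siY14. No other CEACAM gene passed in either table, out of 7 with reads beside siSOX9 and 5 beside siY14. CEACAM19, singled out after its values were seen as the only one with a mean of at least 10, averaged 127 in siSOX9 and 117 in siCtrl cells and 161 in siY14 and 90.0 in siCtrl cells, with adjusted p-values of 1 and 0.369 in the authors' deposited tables.

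Genes of ion and fluid transport stood with 0 of 19 past the threshold after siSOX9 and 4 of 17 after siY14, all lower. Beside them, 2.27% and 5.35% of all genes with reads were lower. In the authors' deposited siY14 table, GUCY2C, the guanylin receptor, had a log2 ratio of -1.46 (adjusted p = 0.0117). In the authors' deposited table CFTR, the apical chloride channel, had -0.90 (adjusted p = 1.38e-05), and SLC9A2, a sodium-proton exchanger, had -0.74 (adjusted p = 0.0229). SLC26A2, a sulfate transporter related to SLC26A3, had -0.51 there (adjusted p = 0.0450, authors' deposited table). In the siSOX9 table these 4 genes had -0.22, -0.25, -0.47 and 0.15 in the same order, with adjusted p-values of at least 0.299 in the authors' deposited table. The joint limma-voom difference, siSOX9 minus siY14, was 1.53 ± 0.41 (SE) for GUCY2C (adjusted p = 0.0216), 0.65 for SLC26A2 (adjusted p = 0.138) and 0.31 for SLC9A2 (adjusted p = 0.350), and CFTR was not tested.

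Of the members' relatives with reads, 2 of 11 fell after siSOX9 and 2 of 10 after siY14 in the authors' deposited tables. VILL, the villin-like gene, fell in both, with a log2 ratio of -0.94 (adjusted p = 0.00487) after siSOX9 and -0.97 (adjusted p = 0.00225) after siY14 in the authors' deposited tables. LGALS3, the galectin-3 gene, fell after siY14 with -0.67 (adjusted p = 0.0379, authors' deposited table).

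Among keratin and surface genes, 1 of 12 rose and 1 fell after siSOX9, and 1 of 12 fell after siY14. KRT20, a keratin of differentiated colonocytes, averaged 215 in siSOX9 cells and 96.8 in siCtrl cells in the authors' deposited table, a log2 ratio of 1.15 (adjusted p = 4.24e-04). In the siY14 table it averaged 22.0 in siY14 cells and 95.3 in siCtrl cells in the authors' deposited table, a log2 ratio of -2.12 (adjusted p = 9.18e-08). The difference in the joint limma-voom model was 3.29 ± 0.32 (SE, adjusted p = 2.93e-05). TSPAN1, a tetraspanin, fell after siSOX9 with -1.02 (adjusted p = 0.0145) in the authors' deposited table.

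Of 13 intestinal transcription factors, 3 fell after siSOX9 and 1 after siY14 in the authors' deposited tables. After siSOX9 these included KLF4 with a log2 ratio of -0.90 (adjusted p = 3.82e-05) and ELF3 with -0.60 (adjusted p = 0.0317) in the authors' deposited table. After siY14 it was KLF5, with -0.56 (adjusted p = 0.0174, authors' deposited table). CDX2, a regulator of intestinal identity, averaged 14545 in siSOX9 and 12082 in siCtrl cells, and 7255 in siY14 and 7413 in siCtrl cells, and its adjusted p was 1 in both of the authors' deposited tables. No gene of enterocyte lipid handling passed, out of 7 with reads beside siSOX9 and 8 beside siY14. Over list genes with a mean of at least 10, the median log2 fold change after siSOX9 was -0.27 for transport, -0.13 for the relatives, -0.18 for keratin and surface genes, -0.21 for transcription factors and -0.19 for lipid handling, and after siY14 it was -0.56, -0.45, -0.48, -0.21 and 0.25 in the same order.

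**Figure D4:**
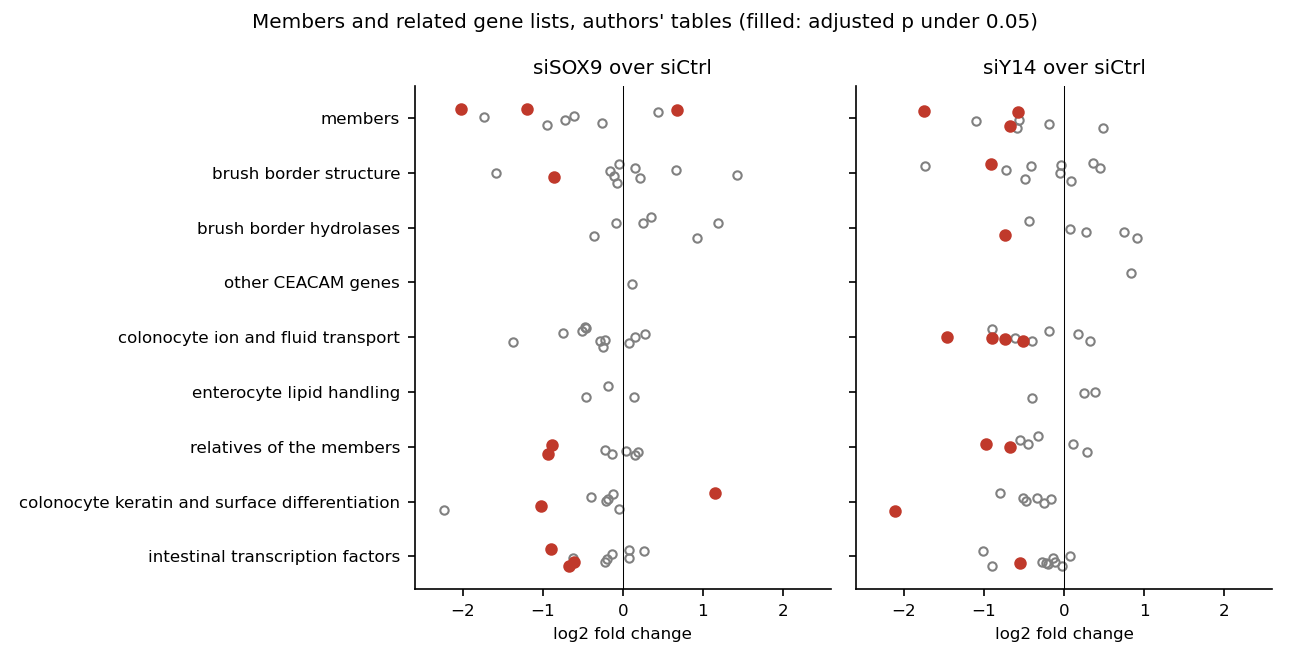
Log2 fold change (x axis) of each gene with an arm mean of at least 10, by list (rows, members first), for siSOX9 over siCtrl (left) and siY14 over siCtrl (right) in the authors' deposited tables. Filled points passed an adjusted p of 0.05; 3 members are filled in either panel, and 4 transport genes are filled in the siY14 panel and 0 in the siSOX9 panel.

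The genes whose 4 arm means were most like those of VIL1, among 11069 genes with a mean of at least 100 in both tables, were GALNT7, KIAA1211L and DCAF6. The measure was the root mean square difference of log2 arm means centred within each table, and it was 0.0083 for GALNT7, 0.020 for KIAA1211L and 0.029 for DCAF6. For CDH17 they were HOXA13, ZFP36 and LOC100505876, and for CA2 they were TMEM38A, ZNF75A and LEF1. CEACAM5 and LGALS4 lay under that mean in at least 1 table and were not matched. With centring, the measure rests on the 2 fold changes alone.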

How the data were processed

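RNA sequencing was done on 13 DLD-1 samples in 3 experiments. Per the labels' protocols, polyadenylated RNA was made into stranded libraries, and strand use in counting is not given in the sources used here. Per the submitters' processing notes, the tools were DESeq, HTSeq, SAMtools, HISAT2, TopHat2 and Bowtie, on hg19.

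The authors deposited 2 tables, each with a mean normalised count per arm, a signal of reads divided by library size factors. Per the file headers, further columns give the ratio between arms (knockdown over siCtrl), its log2, and a raw and adjusted p-value. Arms were told apart by the number of libraries that each arm's weight in the overall mean implies. The tables have 0 unused columns of per-sample values.

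Arm means are sums of whole reads divided by size factors, so sets of whole reads that give the printed mean were enumerated and accepted at a posterior of at least 0.999. Both arms were solved for 63.8% of genes with reads in the siSOX9 table (11968 of 18747) and for 69.9% (12373 of 17706) with siY14. Sets near equal values are favoured, so SDs of genes with high means can be too small. Genes averaging 10 or more were fitted on recovered reads by voom of limma 3.58.1 (R 4.3.3), using the authors' size factors, after a test on simulated data. Levels per kilobase use the length of all exons, where the coding length had been planned.

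Members and gene lists were chosen with earlier results of these data known. All members are named, along with list genes past the authors' adjusted p of 0.05 (at most 4 per list and table, by log2 fold change) and the 3 genes nearest in pattern to each member past it. Alternatives covered scaling, filters, pseudocounts, depth class and libraries left out. Some list genes past that threshold are not reported here.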

Additional observations from a re-analysis of the deposited data

Results flagged for a closer look

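VIL1 passed the test for a difference in response between siSOX9 and siY14. The difference in log2 fold change, siSOX9 minus siY14, was -0.59 in the joint limma-voom model, with an adjusted p of 0.0492 (Benjamini-Hochberg). VIL1 was lower in 4 of 4 siSOX9 and 4 of 4 siY14 libraries than in any siCtrl library of the same table. So were 15.6% of all genes tested for siSOX9 and 29.6% for siY14, where the libraries formed near-identical pairs. The recovered reads of VIL1 are uncertain. At the VIL1 mean in siY14 cells, 35 of 60 simulated sets of reads were accepted, 1 of them wrong. Of 60 simulated means shifted away from true sums, 24 were accepted at that mean and 10 of 60 at its siSOX9 mean. VIL1 was singled out because this difference passed its own test, as 1 of 6 members, a share near the 17.5% of all genes called. That count does not set the members apart from other genes. The call was lost in 10 of 13 fits that left out 1 library, and its limma-voom adjusted p was 0.0811 with median-of-ratios size factors, 0.0815 without the deepest libraries and 0.169 with near-identical libraries summed. Experiment, depth and siRNA change together with the knockdown, and their parts in the difference cannot be told apart.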

How the results depend on the processing

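The siSOX9 members past an adjusted p of 0.05 numbered 3 in the authors' deposited table and 5 in limma-voom, and the siY14 members 3 and 1. The siSOX9 limma-voom count was 3 with a mean of at least 100, since lower members were then not tested, and 3 to 6 when 1 library was left out. With a mean of at least 100 the siY14 count was 1, VIL1 in place of LGALS4, which was then not tested. The siY14 count was 0 to 3 when 1 library was left out, and 0 with near-identical libraries summed, where 3 of all 8111 genes passed and 772 had an unadjusted p under 0.05. It was 0 without either siCtrl library, where 1 of all genes passed and 1501 (without a) or 1706 (without b) had an unadjusted p under 0.05, and 3 without siY14 library a, where 2009 of all genes passed. The count of members whose response differed between knockdowns, 1 in the joint model, was 0 to 1 when 1 library was left out and 0 with median-of-ratios size factors, without the deepest libraries and with near-identical libraries summed, the last 2 chosen after seeing the data. The difference changed sign for CEACAM1, at -0.0766 with a pseudocount of 1, -0.263 without the deepest libraries and -0.459 to 0.323 when 1 library was left out, with -0.0014 without siSOX9 library b and -0.0175 without siY14 library a. It changed sign for CEACAM6, at 0.0199 without the deepest libraries and -0.134 to 0.0738 when 1 library was left out, with 0.0376 without siSOX9 library a, 0.0034 without siCtrl library c and 0.0144 without siY14 library a. The cause was not tested for any of these changes. Of the other values for single genes, 231 kept their direction and side of the threshold, 27 lost and 11 gained a call. FABP1, with 1 read in all siCtrl libraries of the siSOX9 table together, lies below what this depth can compare. No paired analysis was possible because the recovered libraries and the deposited columns carry no replicate numbers.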
